A study of Mus musculus with 27 samples.

Results

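The 27 regions of interest (ROIs) of cancer-associated fibroblasts (CAFs) were compared by how strongly they expressed 3 genes of the low-oxygen response. Each ROI was scored by the mean of Vegfa, Bnip3 and Slc2a1, taken as log2(value + 1) minus the median of the same ROI over all targets, a scale called the relative log2 level here. ROI 26, a knockdown ROI with 76346 reads, was left out, and the other 26 were ranked within their condition. The 5 highest and the 5 lowest of each condition gave 10 score-high and 10 score-low ROIs, so 20 of 27 entered the comparison, and 6 lay between. The classes were therefore chosen by measured values of these same samples, and the 3 score genes are no finding.

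The ROIs came from liver metastases that grew after MC38 cells, a mouse colorectal cancer line, were injected into the portal vein of 2-month-old C57BL/6 mice. Livers were taken 11 days later. The injected cells carried a non-targeting shRNA in the control group (14 ROIs) or an shRNA against CMTM6, a membrane protein, in the knockdown group (13 ROIs), with 3 mice in each. The silencing is in the injected tumor cells, and the fibroblasts are those of the host. RNA was taken from the desmin-stained area of each ROI by GeoMx spatial profiling with a probe panel for the mouse whole transcriptome, whose tags are counted by sequencing. Which mouse an ROI came from is not in the labels. Some ROIs therefore share an animal, while p-values over ROIs treat them as independent. Those p-values cannot be taken at face value and may be too small, and mouse and class cannot be told apart. In the knockdown group the score-high ROIs were numbers 16 to 19 and 24 and the score-low ROIs numbers 20 to 23 and 25, so that the classes were nearly runs of neighboring numbers.

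Cells sense oxygen through hypoxia-inducible factors (HIFs). Prolyl hydroxylases of the Egln family mark the HIF alpha subunits for destruction while oxygen is present. When it falls, HIF accumulates and binds a short core motif near its targets, which carry glucose into the cell, run glycolysis, export lactate, call for new vessels and damp mitochondrial respiration. Vegfa encodes the main growth factor for blood vessels, Bnip3 a protein of mitophagy and Slc2a1 the glucose transporter Glut1. No oxygen level was measured in these sections, so the score is a level of 3 transcripts and not a measure of oxygen.

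Promoters of 4 genes that were higher in the score-high ROIs are shown because their products run glycolysis, export its lactate or act in mitochondria, and because they hold the HIF core motif. The glycolytic gene Aldoa also meets this but is not shown. Its listed starts 1 and 2 hold the motif and its start 3 does not. The sequences are RefSeq's for GRCm38.p6, each of 300 bases around the annotated start of transcription, read 5′ to 3′ on the strand of the gene. Capitals mark the letters ACGTG or GCGTG, or their reverse complements CACGT and CACGC, and a CACGTG would count on both strands.
Pgk1, chrX:106186850-106187149, plus strand: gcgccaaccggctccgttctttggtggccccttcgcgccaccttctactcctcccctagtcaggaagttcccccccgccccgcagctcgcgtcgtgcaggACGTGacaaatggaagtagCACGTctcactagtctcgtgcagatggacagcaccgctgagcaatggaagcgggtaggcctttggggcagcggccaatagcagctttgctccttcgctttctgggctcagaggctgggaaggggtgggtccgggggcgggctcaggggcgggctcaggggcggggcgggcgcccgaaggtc
Slc16a3, chr11:120948817-120949116, plus strand: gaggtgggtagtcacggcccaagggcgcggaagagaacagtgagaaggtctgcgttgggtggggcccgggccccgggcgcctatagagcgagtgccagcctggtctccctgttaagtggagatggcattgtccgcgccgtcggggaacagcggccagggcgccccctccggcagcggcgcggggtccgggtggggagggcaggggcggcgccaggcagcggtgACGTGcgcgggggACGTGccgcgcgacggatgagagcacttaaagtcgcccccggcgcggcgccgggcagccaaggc
Hk2, chr6:82774405-82774704, minus strand: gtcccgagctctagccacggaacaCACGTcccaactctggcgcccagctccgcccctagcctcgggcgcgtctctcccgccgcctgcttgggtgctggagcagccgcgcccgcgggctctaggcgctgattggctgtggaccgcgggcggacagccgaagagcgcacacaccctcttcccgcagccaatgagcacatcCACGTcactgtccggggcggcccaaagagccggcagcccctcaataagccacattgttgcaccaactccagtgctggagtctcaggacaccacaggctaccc
Fam162a, chr16:36071512-36071811, minus strand: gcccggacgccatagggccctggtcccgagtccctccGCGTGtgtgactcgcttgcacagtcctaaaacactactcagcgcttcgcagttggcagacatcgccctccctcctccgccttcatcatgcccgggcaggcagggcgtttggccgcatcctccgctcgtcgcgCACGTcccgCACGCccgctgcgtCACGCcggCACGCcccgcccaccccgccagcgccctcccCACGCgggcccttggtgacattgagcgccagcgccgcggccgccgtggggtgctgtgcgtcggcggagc

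Pgk1, Slc16a3 and Hk2 each held the motif at 2 places in this window, and Fam162a at 6. The motif is short and common. It was found in 43.8% of the 32851 promoters of the table and, counted by gene, in 56.6% of the 14881 tested targets that matched a promoter by symbol and in 67.5% of the 9091 of these above background. Of the 7 genes called higher 6 held it, as did 3 of the 4 called-lower genes that matched, 28 of 32 matched HIF targets, 21 of 24 matched glycolysis genes and 3 of 8 matched endothelial markers. A match is a run of letters and not a measured binding site, and no factor was measured here.

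The score spread more widely in the control than in the knockdown group. Control score-high ROIs scored 1.58 to 3.19 and control score-low ROIs 0.70 to 1.00, a difference in means of 1.40 on the relative log2 scale. In knockdown CAFs the high class lay at 1.11 to 1.56 and the low class at 0.59 to 0.82, a difference of 0.54. Just outside the classes were control ROI 10 at 1.51, beside ROI 8 at 1.58 inside, and control ROI 9 at 1.43, beside ROI 4 at 1.00. In the knockdown group ROI 27 at 0.94 was next to ROI 16 at 1.11, and ROI 28 at 0.84 was next to ROI 20 at 0.82. Deposited values lie on a different scale in each condition. Their 75th percentile within an ROI was 70.3 to 72.6 in control and 43.9 to 45.7 in the scored knockdown ROIs. Deposited values given here are therefore to be compared within a condition and not between control and knockdown. As a description, the deposited Vegfa values were 92.7, 96.5, 134, 236 and 292 in control high ROIs and 45.8, 54.3, 58.8, 70.4 and 91.4 in control low ROIs. The knockdown Vegfa values were 38.3, 40.3, 41.4, 45.0 and 65.0 in high and 24.0, 26.7, 29.5, 31.3 and 39.8 in low ROIs. Control ROI 6 had the highest value of all 3 score genes.

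The score-high ROIs were also sequenced more deeply. They held 1019143 to 2337223 reads in control and 1092733 to 2776820 in knockdown CAFs, beside 659571 to 1675757 and 406002 to 1207891 in the score-low ROIs. The mean difference in log2 reads was 0.78, with an exact two-sided permutation test within conditions giving p = 0.0088 over 63504 arrangements. The median log2 value over all targets, which the score subtracts, differed by 0.03 (exact permutation p = 0.376). The depth of the library thus moved with the class, and its part in the results was not tested beyond a fit with log2 reads as a covariate, whose effect on the calls is given with their number. Of the markers of CAFs, Col1a1, Col1a2, Dcn, Acta2, Pdgfrb and Des lay above background in the 20 ROIs, with a median Col1a1 value of 7478 and a median Acta2 value of 471. Endothelial markers were present too, with a median Cdh5 value of 258, so the desmin-stained areas held RNA of more than fibroblasts. Background here is the 95th percentile of the mean relative log2 level of 987 olfactory, vomeronasal and taste receptor targets.

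**Figure D1:**
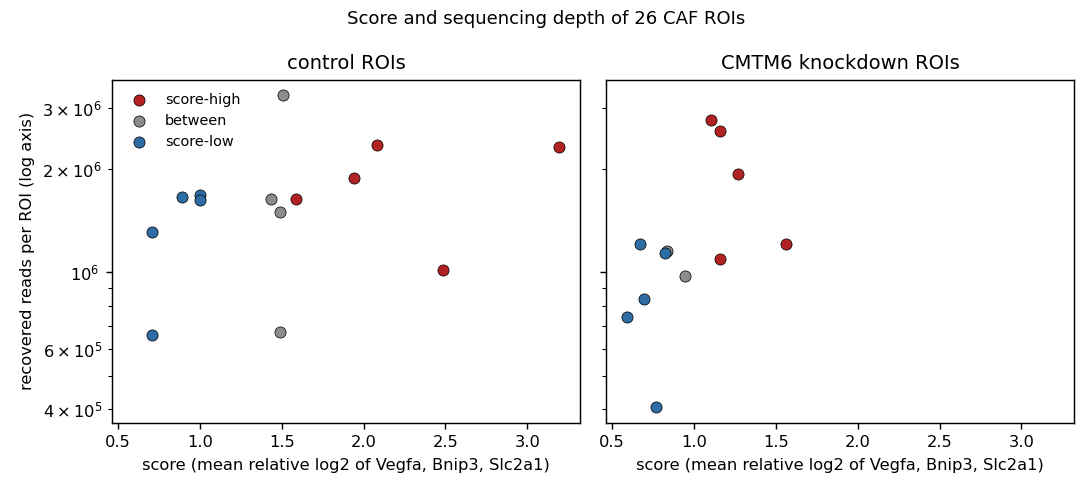
Score of each ROI (mean relative log2 level of Vegfa, Bnip3 and Slc2a1, horizontal axis) against its recovered reads (vertical log axis), for 14 control and 12 knockdown ROIs, 1 point per ROI. Control ROI 6 stands farthest to the right at 3.19, the knockdown high class ends at 1.56, and the deepest knockdown ROIs are in the high class.

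Across 18852 targets, 7 genes were higher and 6 lower in the score-high than in the score-low ROIs. Of the higher genes 4 belong to sugar metabolism, the glycolytic enzymes Hk2, Aldoa and Pgk1 and the lactate exporter Slc16a3, and the others were the HIF-induced mitochondrial protein Fam162a, the vasoactive peptide Adm2 and the stress-induced survival factor Ier3. The lower genes were the apelin receptor Aplnr and the junctional regulator Rasip1, both known from endothelial cells, the matrix proteins Prelp and Mfap4, and Etl4 and Sertad4. The log2 fold changes ran from 0.56 for Aldoa to 0.97 for Ier3, and from -0.66 for Sertad4 to -1.19 for Aplnr. The test was limma on the relative log2 level with condition as a covariate and Benjamini-Hochberg adjusted p under 0.05 over all targets, which called 0.0371% of targets higher and 0.0318% lower. These shares were 5.90% (1112 targets) and 3.70% (698 targets) at an unadjusted p under 0.05. Of the 11336 targets above background, 457 were higher and 657 lower at that unadjusted limit. The p-values describe how a gene followed the score over ROIs that were picked by it, and a fold change on log2(value + 1) understates the change of low targets.

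The calls hung on few ROIs. The number of called genes was 0 without control ROI 2, control ROI 13 or knockdown ROI 17. It was 3 without control ROI 7, 5 without control ROI 6, 6 without knockdown ROI 21, 7 without control ROI 15, 8 without knockdown ROI 22, 26 without knockdown ROI 25 and 35 without control ROI 11. In these 3 fits with 0 calls by limma, 1609, 1706 and 1584 targets had an unadjusted p under 0.05. All 13 genes kept their direction in every alternative fit. Over the 20 fits that left out 1 ROI, Aldoa and Etl4 were called in 17, Ier3 and Aplnr in 16, Prelp and Mfap4 in 15, Slc16a3 in 14, Hk2 and Adm2 in 12, Fam162a and Rasip1 in 8, Pgk1 in 6 and Sertad4 in 5. With log2 reads as a covariate 19 genes were called, and 8 of the 13 remained: Aldoa, Slc16a3, Fam162a, Adm2, Ier3, Aplnr, Prelp and Etl4. The other 5 had log2 fold changes there of 0.66 for Hk2 (limma adjusted p = 0.0853), 0.60 for Pgk1 (0.0949), -0.89 for Mfap4 (0.0740), -0.84 for Rasip1 (0.115) and -0.65 for Sertad4 (0.155). On the recovered reads, edgeR called 9 genes higher (0.0477%) and 8 lower (0.0424%), and 12 of the 13 were among them, all but Sertad4.

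Slc16a3 encodes MCT4, which carries lactate out of glycolytic cells. Its deposited values were 475, 540, 611, 671 and 880 in the control high ROIs and 218, 277, 287, 311 and 326 in the control low ROIs. Every control high ROI lay above every control low ROI. In the knockdown group the values were 148, 181, 216, 258 and 296 against 115, 154, 159, 184 and 214, and the classes overlapped. The log2 fold change over both conditions was 0.74 (standard error 0.14, limma adjusted p = 0.0224). It ranged from 0.66 to 0.81 when each ROI was left out in turn.

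Hk2 encodes hexokinase 2, which traps glucose in the cell as its phosphate. Control high ROIs had Hk2 values of 89.4, 91.7, 97.4, 118 and 161, and control low ROIs 47.6, 47.9, 49.3, 65.8 and 78.8. These did not overlap. Knockdown high ROIs had 40.5, 44.1, 47.0, 57.1 and 61.2, and knockdown low ROIs 28.6, 32.9, 37.3, 40.0 and 51.2, where only the highest low ROI reached into the high range. For Hk2 the log2 fold change was 0.63 (standard error 0.12, limma adjusted p = 0.0265).

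Aldoa, aldolase A, splits the phosphorylated sugar into its triose phosphates. Its values in the control group were 1173, 1222, 1304, 1460 and 2008 in high ROIs and 755, 781, 824, 876 and 876 in low ROIs, again without overlap. In knockdown CAFs they were 500, 546, 551, 643 and 656 in high ROIs and 392, 400, 402, 424 and 558 in low ROIs, and only ROI 25 of the low class lay among the high ones. Its log2 fold change was 0.56 (standard error 0.10, limma adjusted p = 0.0196).

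Pgk1, phosphoglycerate kinase, makes ATP in the later steps of glycolysis. The Pgk1 values of the control high ROIs were 796, 953, 1068, 1112 and 1638, above all of the control low ROIs at 505, 540, 595, 611 and 630. Those of the knockdown ROIs were 319, 319, 394, 409 and 418 in the high and 269, 296, 301, 319 and 327 in the low class, which overlapped at their edge. Its log2 fold change was 0.57 (standard error 0.12, limma adjusted p = 0.0371). Pgk1 and Aldoa have processed pseudogenes, and how the probes treat such copies is not given in the sources used here.

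Fam162a was first described as a HIF-induced protein of mitochondria that takes part in hypoxic cell death. Its control values were 207, 289, 291, 448 and 626 in high and 152, 159, 163, 169 and 177 in low ROIs. In the knockdown group they were 95.0, 99.5, 104, 117 and 147 against 67.4, 68.9, 77.9, 90.9 and 118. The control classes were apart, and in the knockdown group ROI 25 of the low class exceeded 4 of the 5 high ROIs. Fam162a showed a log2 fold change of 0.71 (standard error 0.14, limma adjusted p = 0.0315).

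Adm2 encodes adrenomedullin 2, a peptide that widens vessels. Its deposited values in the knockdown ROIs were 17.5, 22.7, 29.3, 30.8 and 34.4 in the high and 12.6, 18.2, 18.8, 24.3 and 31.1 in the low class. On the relative log2 scale the mean of the low class was 0.10 in knockdown and 0.01 in control ROIs. In control ROIs its values were 64.8, 74.1, 74.6, 77.6 and 98.8 in the high class and 21.2, 22.4, 25.8, 37.6 and 38.6 in the low class, with a wide gap between. Over both conditions the log2 fold change was 0.86 (standard error 0.16, limma adjusted p = 0.0224).

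Ier3, an immediate early gene that is induced by stress and by cytokines, had the highest fold change of the called genes. Its values were 56.3, 58.6, 109, 127 and 150 in control high and 27.2, 30.4, 31.7, 32.9 and 33.2 in control low ROIs. Knockdown ROIs had 23.3, 27.3, 46.3, 46.7 and 49.3 in the high class and 24.3, 26.3, 26.7, 27.3 and 29.7 in the low class, so 3 knockdown high ROIs stood above the whole low class and 2 did not. Over both conditions its log2 fold change was 0.97 (standard error 0.17, limma adjusted p = 0.0196), made up of 1.48 in control and 0.46 in knockdown CAFs. The 7 called-higher genes all separated the control classes. Over all targets 0.902% lay wholly higher in the high class in control and 0.700% in knockdown CAFs, and 0.753% and 0.440% wholly lower; since the genes were called in the same ROIs, nothing is read from this count.

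**Figure D2:**
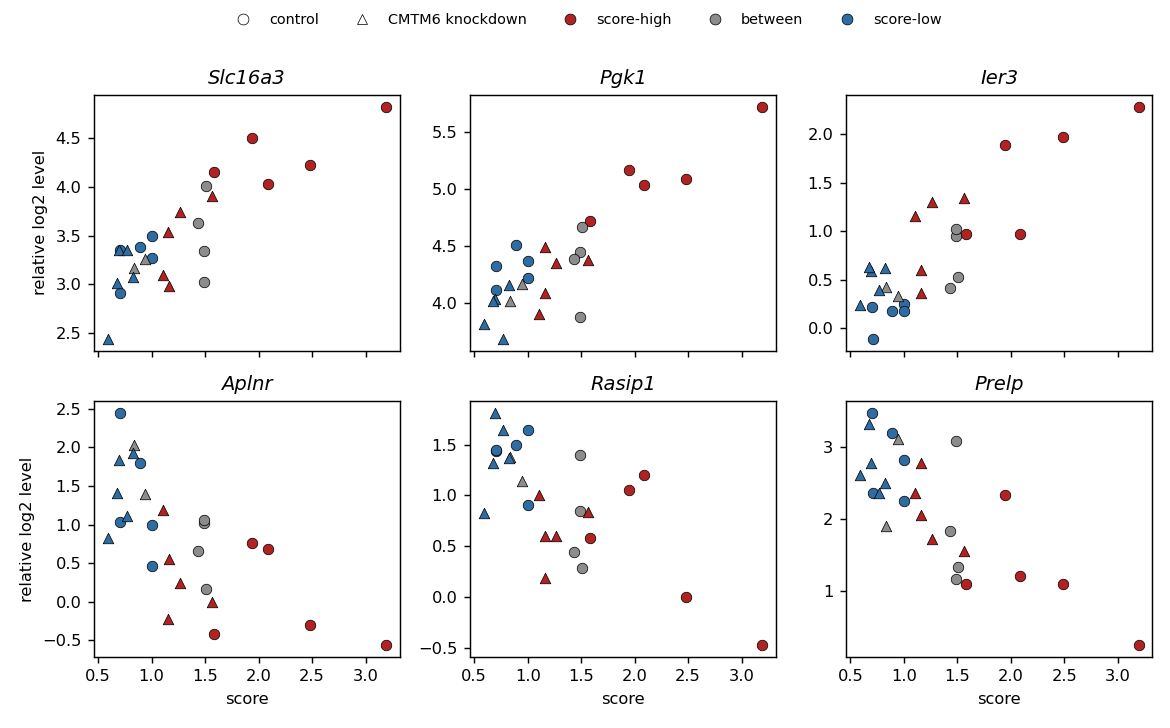
Relative log2 level (vertical axis) of 3 called-higher genes (Slc16a3, Pgk1, Ier3) and 3 called-lower genes (Aplnr, Rasip1, Prelp) against the score (horizontal axis), 1 point per ROI, circles for control and triangles for knockdown CAFs. The 6 gray ROIs between the classes took no part in the test. Control ROI 6, at a score of 3.19, has the highest level of each gene in the upper row and the lowest of each in the lower row.

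The 6 ROIs between the classes, whose levels of these genes were not used for a call, gave a further description. The mean of the 4 control ROIs between lay between the means of the control high and low classes for 12 of the 13 genes, all but Mfap4. The mean of the 2 knockdown ROIs between lay between the knockdown class means for 6 of the 13. These ROIs are in the middle by the same score that chose the classes. The same count was not taken over all targets, so nothing is read from these counts.

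Aplnr, the receptor of apelin on vessels, had the largest decrease. Its values were 20.0, 21.8, 25.7, 45.8 and 49.2 in control high ROIs against 38.5, 56.9, 61.3, 95.7 and 158 in control low ROIs. In knockdown CAFs they were 15.0, 18.8, 21.9, 26.6 and 47.7 against 37.1, 44.5, 51.7, 64.0 and 68.8. In each condition the lowest 3 values were all of high ROIs, and the classes overlapped by few ROIs. The log2 fold change of Aplnr was -1.19 (standard error 0.21, limma adjusted p = 0.0196), with -1.31 in control and -1.07 in knockdown CAFs.

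Rasip1 binds small GTPases at the junctions of endothelial cells and is needed for vessels to form a lumen. Control high ROIs had Rasip1 values of 21.4, 31.8, 44.5, 60.7 and 66.1, and control low ROIs 52.9, 77.3, 78.7, 81.7 and 89.6. Knockdown high ROIs had 20.4, 27.3, 28.3, 34.4 and 41.6, and knockdown low ROIs 37.1, 46.4, 48.5, 62.8 and 64.5. Only 1 low ROI of each condition, control ROI 4 and knockdown ROI 23, reached into the range of the high class. The log2 fold change was -0.83 (standard error 0.17, limma adjusted p = 0.0315).

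Prelp is a small leucine-rich proteoglycan that links collagen to basement membranes. Its values were 36.1, 64.3, 66.8, 69.6 and 149 in control high and 137, 157, 202, 253 and 324 in control low ROIs. They were 57.1, 63.2, 76.6, 109 and 129 in knockdown high and 104, 107, 123, 131 and 197 in knockdown low ROIs. A single control high ROI, ROI 3, lay above the lowest control low ROI. Its log2 fold change was -1.12 (standard error 0.21, limma adjusted p = 0.0224).

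Mfap4 is a glycoprotein of elastic microfibrils. In control CAFs its values overlapped, with 148, 202, 286, 312 and 336 in the high and 256, 294, 410, 413 and 682 in the low class. In knockdown CAFs they did not, with 95.0, 151, 162, 186 and 200 in the high and 226, 300, 309, 351 and 359 in the low class. Its log2 fold change was -0.85 (standard error 0.16, limma adjusted p = 0.0224). Etl4, known as sickle tail for the mouse mutant with a kinked tail, was low throughout. Its values were 16.0, 17.2, 18.9, 19.7 and 24.9 in control high and 35.4, 35.8, 42.3, 45.4 and 45.8 in control low ROIs, which did not overlap. The knockdown values were 11.7, 12.4, 13.3, 16.7 and 19.9 against 15.4, 19.4, 24.3, 24.9 and 28.9. Its log2 fold change was -0.84 (standard error 0.14, limma adjusted p = 0.0195). Sertad4 had the smallest decrease, -0.66 (standard error 0.14, limma adjusted p = 0.0449). Its knockdown values were 16.0, 18.0, 21.6, 22.0 and 22.9 in high and 29.8, 33.7, 34.6, 35.4 and 53.4 in low ROIs, and its control values 29.3, 33.3, 34.7, 49.2 and 64.2 against 47.7, 49.3, 51.7, 62.5 and 62.6.

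The genes of the HIF response other than the score genes were mostly higher in the score-high ROIs. Of 43 HIF targets, 42 had a log2 fold change above 0, with a median of 0.34, beside 56.8% of all targets with a median of 0.03 and 46.2% of the 11336 targets above background with a median of -0.01. Only Fam162a passed the adjusted test, while 25 of the 43 (58.1%) had an unadjusted p under 0.05 and were higher, beside 5.90% of all targets, and none was lower. The list was written with earlier results of these data known, and its members share their regulator with the score genes. Ak4, a mitochondrial adenylate kinase, had a log2 fold change of 0.62 (limma adjusted p = 0.0842). P4ha1, a collagen prolyl hydroxylase, had 0.56 (limma adjusted p = 0.0842), and Wsb1, a ubiquitin ligase subunit, had 0.45 (limma adjusted p = 0.102). In the control CAFs 11 of the 43 separated the classes with the high ROIs on top, beside 0.902% of all targets, and in the knockdown CAFs 0 did, beside 0.700%. Their summed share of the signal of an ROI was 0.382% to 0.684% in control high and 0.288% to 0.326% in control low ROIs, and 0.305% to 0.345% against 0.282% to 0.330% in knockdown CAFs.

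Of 25 glycolysis genes, 4 were called higher and 0 lower, 20 had a log2 fold change above 0, and their median was 0.33. At an unadjusted p under 0.05, 16 (64.0%) were higher and 2 (8%), Pfkfb4 and Pgm2, were lower, beside 5.90% and 3.70% of all targets. Ldha, which makes lactate from pyruvate and was added to the named genes after its values were seen, had a log2 fold change of 0.44 (limma adjusted p = 0.0833) and was called by edgeR. In the control group 11 of the 25 separated the classes with the high ROIs on top, beside 0.902% of all targets, and in the knockdown group 0 did, beside 0.700%. With depth as a covariate the median of the list was 0.34, and that of the HIF targets 0.33. Of 10 genes that make up or regulate HIF, none was called. Egln3, an oxygen-sensing hydroxylase that HIF itself induces, had 0.62 (limma adjusted p = 0.253), and Epas1, which encodes HIF-2 alpha and is abundant in vessels, had -0.56 (limma adjusted p = 0.186).

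**Figure D3:**
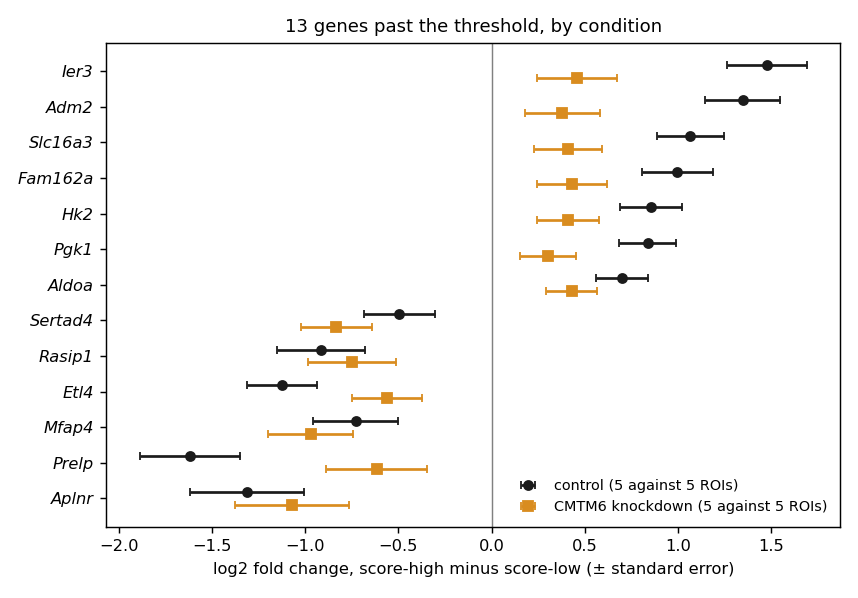
Log2 fold change of score-high against score-low ROIs (horizontal axis, points with 1 standard error) of the 13 genes called over both conditions, fitted within the control (circles) and knockdown ROIs (squares), 5 against 5 ROIs each. The 7 higher genes lie at 0.70 to 1.48 in control and 0.30 to 0.46 in knockdown CAFs, and the 6 lower genes lie below 0 in both.

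Genes of the stress response lay higher, with no call over both conditions in the main limma fit. All 19 genes of the ATF4 response, which cells mount when amino acids or glucose run short, had a log2 fold change above 0. Their median was 0.30, beside 56.8% of all targets above 0 with a median of 0.03. At an unadjusted p under 0.05, 10 (52.6%) were higher and 0 lower, beside 5.90% and 3.70% of all targets. DESeq2 called 1 of the 19 higher, as did limma after scaling to the 75th percentile, and within control limma called 2. Over all 18852 targets these fits called 84, 31 and 27 genes, both directions together. Trib3, a pseudokinase that ATF4 induces, had 0.75 (limma adjusted p = 0.142), Ddit3, the factor CHOP, 0.53 (limma adjusted p = 0.210) and Atf4 itself 0.38 (limma adjusted p = 0.141). Trib3 values in control ROIs were 117, 132, 139, 143 and 284 in the high and 36.4, 43.8, 49.7, 90.8 and 140 in the low class, so that 1 low ROI, ROI 4, reached the high range. Within control Trib3 was called, with a log2 fold change of 1.20 (limma adjusted p = 0.0424), and in knockdown CAFs it had 0.31 (limma adjusted p = 0.845). The 9 ligands and receptors of the EGF family had a median of -0.02 (0.02 when scaled to the 75th percentile), with 5 below 0. At an unadjusted p under 0.05, 3 (33.3%) were higher, beside 5.90% of all targets. Among the ligands, Areg had 0.92 (limma adjusted p = 0.188) and Hbegf 0.60 (limma adjusted p = 0.230). Areg was 165 in control ROI 6 and 22.3 to 68.1 in the other control high ROIs, beside 10.3 to 29.6 in the control low ROIs. Among 16 genes of inflammatory fibroblasts, cytokines and others, the median was 0.18. Ptgs2, which makes prostaglandins, had 0.87 (limma adjusted p = 0.188). Il6 had 0.51 (limma adjusted p = 0.369), but its mean level lay below background. Ltbp1, which anchors latent TGF beta in the matrix, had 0.54 (limma adjusted p = 0.142), while 16 genes of the TGF beta pathway had a median of 0.00.

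Endothelial markers lay lower in the score-high ROIs. All 15 had a log2 fold change below 0, with a median of -0.43. Of these, 10 (66.7%) had an unadjusted p under 0.05, beside 3.70% of all targets and 657 of the 11336 above background. None passed the adjusted test in the main limma fit or by edgeR, while DESeq2 called 3 lower and limma with array weights 2. Cdh5, the cadherin of endothelial junctions, had -0.71 (standard error 0.15, limma adjusted p = 0.0600), and Emcn, a sialomucin of veins and capillaries, -0.62 (limma adjusted p = 0.112). Cdh5 was called in 4 of the 20 limma fits that left out 1 ROI. Cdh5 values were 187, 227, 254, 288 and 379 in control high and 296, 318, 391, 406 and 441 in control low ROIs. Those of the knockdown group were 83.7, 92.2, 118, 158 and 234 in the high and 169, 209, 263, 263 and 278 in the low class. Each pair of classes overlapped by a single high ROI, control ROI 11 and knockdown ROI 19. The summed markers took 0.0626% to 0.102% of the signal in control high against 0.0904% to 0.134% in control low ROIs, and 0.0669% to 0.120% against 0.0952% to 0.141% in knockdown CAFs. Fewer endothelial cells in the area and less RNA per cell cannot be told apart in such samples. Of 20 angiogenic genes, Aplnr was called, and at an unadjusted p under 0.05, Aplnr included, 7 (35.0%) were lower and 2 (10.0%) higher, beside 3.70% and 5.90% of all targets. Their median was -0.20 over both conditions, -0.01 in control and -0.36 in knockdown CAFs, with Kdr, the main receptor of Vegfa, at -0.61 (limma adjusted p = 0.204) and Plxnd1, a semaphorin receptor of vessels, at -0.50 (limma adjusted p = 0.142).

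The endothelial level thus moved with the class, with 14 of its 15 markers above background. In a fit with that level as a covariate, added after the data were seen, limma called 0 genes (946 had an unadjusted p under 0.05), and the medians of the HIF targets and the glycolysis genes were 0.28 in both lists. In that fit the log2 fold change was -0.26 for Rasip1, -0.64 for Aplnr, -0.45 for Mfap4, -0.43 for Sertad4, -0.67 for Etl4 and -1.01 for Prelp. It was 0.36 for Hk2, 0.55 for Fam162a, 0.71 for Adm2, 0.49 for Pgk1 and 0.51 for Aldoa, and 0.86 for Slc16a3 and 1.08 for Ier3. The adjusted p was 0.445 or more for each, and 11 of the 13 values were nearer to 0 than without the covariate. Because the endothelial level itself moved with the class, this fit cannot decide what part endothelial RNA has in the results.

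Markers of quiescent stellate cells and pericytes and contractile genes had medians below 0 over both conditions, with no member called there by the main limma fit, edgeR or DESeq2. With array weights limma called 1 stellate or pericyte marker lower. Of 15 stellate and pericyte markers, 4 (26.7%) were lower and 2 (13.3%) higher with an unadjusted p under 0.05. Over all targets these shares were 3.70% and 5.90%, and of the 11336 targets above background 657 were lower and 457 higher. The median of the 15 markers was -0.15 over both conditions, -0.30 in control and 0.10 in knockdown CAFs. Among the lower ones were Rgs5, a regulator of G protein signaling in pericytes, at -1.19 (standard error 0.30, limma adjusted p = 0.127), Colec11 at -0.65 (limma adjusted p = 0.250) and Pdgfrb, the PDGF receptor of mural cells, at -0.37 (limma adjusted p = 0.323). Rgs5 ranged from 29.4 to 128 in control high and from 108 to 318 in control low ROIs. It was called in 2 of the 20 limma fits that left out 1 ROI. Of 14 contractile genes 12 were below 0, with a median of -0.20 (0.01 in control and -0.19 in knockdown CAFs). At an unadjusted p under 0.05, 5 (35.7%) were lower, beside 3.70% of all targets and 657 of the 11336 above background. Among these 5 were Myl9 at -0.55 (limma adjusted p = 0.237) and Mylk at -0.48 (limma adjusted p = 0.300). Collagens and other matrix proteins had a median of -0.16 over 28 genes, with 0.05 in control and -0.30 in knockdown CAFs. Here Col6a1 had -0.37 (limma adjusted p = 0.274), while Tnc, the wound matrix protein tenascin C, had 0.74 (limma adjusted p = 0.210) and Timp1, an inhibitor of matrix proteases, 0.54 (limma adjusted p = 0.214). Within control Tnc was called, with 1.31 (limma adjusted p = 0.0333), and in knockdown CAFs it had 0.18 (limma adjusted p = 0.935). Of 24 mitosis genes 22 were below 0, with a median of -0.18. At an unadjusted p under 0.05, 8 (33.3%) were lower, beside 3.70% of all targets and 657 of the 11336 above background. Mki67, the proliferation antigen, had -0.36 (limma adjusted p = 0.321) and the kinesin Kif20a -0.31 (limma adjusted p = 0.303). The 19 housekeeping genes had a median of -0.01.

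**Figure D4:**
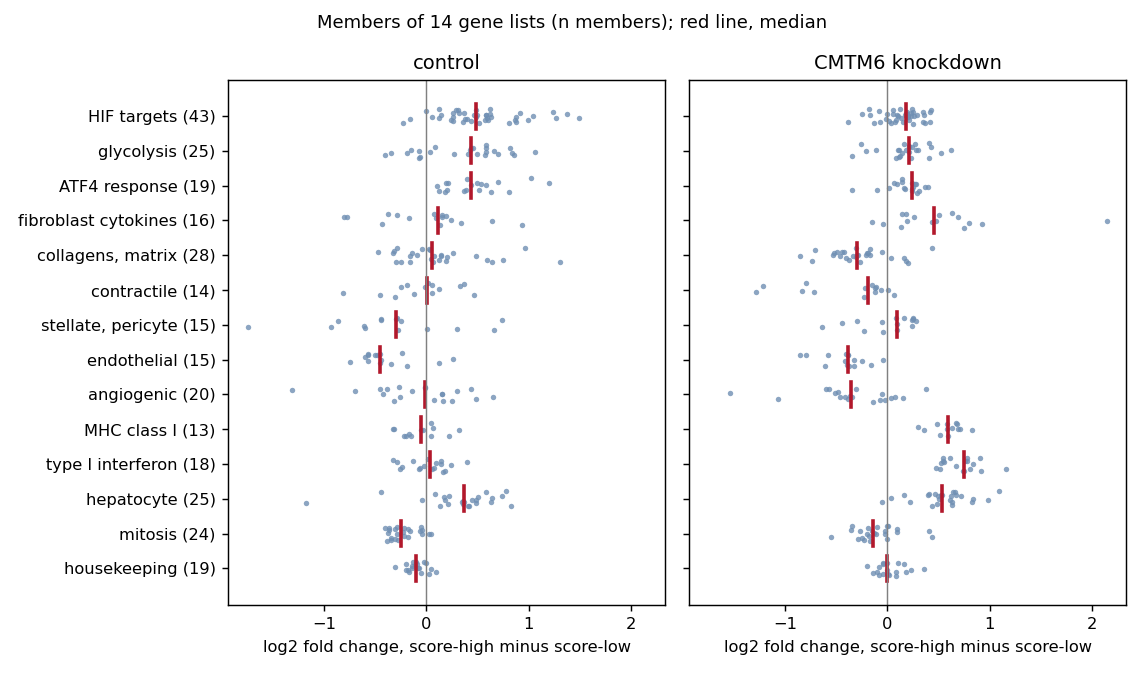
Log2 fold change of score-high against score-low ROIs (horizontal axis) for each member of 14 gene lists, fitted within control (left) and knockdown CAFs (right), with 1 point per gene and a red line at the median of the list. Medians of the HIF targets are 0.49 and 0.18, of the endothelial markers -0.45 and -0.38, and of the type I interferon genes 0.04 and 0.75.

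Markers of hepatocytes, the cells that border the metastases, lay higher in the score-high ROIs. Of 25, 24 were above 0, with a median of 0.43, beside 56.8% of all targets with a median of 0.03. At an unadjusted p under 0.05, 11 (44%) were higher and 0 lower, beside 5.90% and 3.70% of all targets. Serpina1a, which encodes an antitrypsin of plasma and has near-identical paralogs, had 0.65 (limma adjusted p = 0.210), and Cyp2e1, an oxidase of liver, 0.68 (limma adjusted p = 0.314). Of the 25 markers 17 were above background. Their sum was 0.0302% to 0.138% of the signal in control high and 0.0394% to 0.108% in control low ROIs, and 0.0646% to 0.234% against 0.0760% to 0.189% in the knockdown group, so the ranges overlapped. With the hepatocyte level as a covariate 10 of the 13 genes remained called. Of 15 epithelial markers, the class to which the tumor cells belong, Cdh1 and Krt8 were above background, and the sum was 0.0152% to 0.0335% in control high and 0.0127% to 0.0180% in control low ROIs, with 0.0149% to 0.0195% against 0.0126% to 0.0219% in the knockdown group. With the epithelial level as a covariate 2 genes, Aldoa and Etl4, were called. The log2 fold changes of the other 11 kept 0.88 or more of their size in that fit, such as 0.73 for Slc16a3 and -0.82 for Mfap4, with adjusted p from 0.0656 to 0.0966. Only 2 of the 15 markers behind that level lay above background, so this fit cannot decide what part RNA of tumor cells has. Macrophage markers had a median of 0.07 over 18 genes. Their sum was 0.151% to 0.272% of the signal in control high and 0.129% to 0.317% in control low ROIs. In the knockdown group it was 0.185% to 0.347% against 0.189% to 0.236%. With the macrophage level as a covariate, added after the data were seen, 11 of the 13 genes remained called. What part RNA of other cells has in the results was not tested beyond these fits.

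More genes were called in the control group, where the mean scores of the classes were 1.40 apart, than in the knockdown group, where they were 0.54 apart. Within control, limma called 22 genes higher and 5 lower (0.143% of targets), and 8 of the 22 were HIF targets and 6 glycolysis genes. The count of higher genes in control was 6 without ROI 6, 7 without ROI 13 and 12 without ROI 2 or ROI 5, and that of lower genes 3 without ROI 6, ROI 8 or ROI 13, 9 without ROI 4 or knockdown ROI 25, which enters through the shared spread, and 28 without ROI 11. Within knockdown it called 0 (0%), as did edgeR, while DESeq2 called 2 higher and 2 lower; by limma, 960 targets were higher and 465 were lower with an unadjusted p under 0.05. The median log2 fold change of the HIF targets was 0.49 in control and 0.18 in knockdown CAFs, and that of the glycolysis genes 0.43 and 0.21. For Ier3 the difference between conditions was -1.02 (limma adjusted p = 0.691) and for Adm2 -0.97 (limma adjusted p = 0.691), so a difference between the conditions was not shown for either. A single target passed the test of the difference between conditions, 0.00530% of those tested.

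That gene was Clca3a1, of a family that modulates chloride channels. In control CAFs its values were 32.7, 49.2, 65.1, 67.3 and 84.5 in high and 115, 116, 134, 138 and 173 in low ROIs, with no overlap. In knockdown CAFs they were 60.8, 61.7, 81.6, 92.4 and 111 in high and 35.4, 45.6, 55.6, 58.9 and 80.1 in low ROIs, with the order of the classes turned and some overlap. The log2 fold change was -1.29 in control (limma adjusted p = 0.0020) and 0.58 in knockdown CAFs (limma adjusted p = 0.473), a difference of 1.87 (standard error 0.28, limma adjusted p = 0.0038). The family holds similar copies, and the probe may not keep them apart.

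Interferon genes had values above 0 mainly in the knockdown CAFs. Of 18 type I interferon genes, all 18 had a log2 fold change above 0 in knockdown CAFs with a median of 0.75, and 10 of 18 in control CAFs with a median of 0.04. Over all targets 57.3% were above 0 in knockdown and 51.7% in control CAFs. For 13 genes of MHC class I presentation the medians were 0.60 and -0.06, and for 16 effectors of interferon gamma 0.62 and -0.17. Rsad2, an antiviral enzyme, had 1.16 in knockdown and 0.14 in control CAFs, with a difference of 1.02 (limma adjusted p = 0.893). Socs1, a feedback inhibitor of cytokine signals, had 0.92 and 0.30, with a difference of 0.63 (limma adjusted p = 0.920). Its mean level lay below background. No member of these 3 lists was called in any of these tests. In knockdown CAFs 7 of the 13 MHC class I genes separated the classes with the high ROIs on top, beside 0.700% of all targets. Rsad2 values were 27.3, 73.4, 90.5, 99.1 and 187 in knockdown high and 29.0, 29.8, 33.4, 37.7 and 53.8 in knockdown low ROIs, with ROI 24 the only high ROI that was not above the whole low class. Gzmb, a protease of killer lymphocytes, had 1.26 in knockdown and 0.41 in control CAFs, with a difference of 0.84 (limma adjusted p = 0.920). The summed markers of T and NK cells, 12 of 17 of them above background, took 0.0340% to 0.0608% of the signal in knockdown high and 0.0246% to 0.0528% in knockdown low ROIs, and their part in the interferon values was not tested.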

How the data were processed

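The deposited sheet held signal values of 18855 targets, which the authors had counted from sequenced probe tags and scaled in the GeoMx software, with a version and normalization not given in the sources used here. All but 3 targets had values that were whole multiples, within 0.001 reads, of what 1 read is worth in that ROI, which gave reads and depth. The authors' methods name a t test for 2 groups; here limma 3.58.1 (trend, two-sided) was run on log2(value + 1) minus the ROI median, with condition as a covariate, and edgeR 4.0.16 and DESeq2 1.42.0 on recovered reads were alternatives. Conditions were fitted apart in a model of 4 cells. R 4.3.3 and Python 3.11.15 were used, and the fits were tested on simulated data. The simulated ROIs were independent, without shared mice or classes picked by a score, so that test does not cover these traits of the design. The members, lists and tests were chosen with earlier results of these data known. Named genes are all called genes above background, the list members with the smallest p (up to 4 per list) and targets called between conditions; not every named gene is described. Of 32 lists, markers of sinusoidal endothelium, neutrophils, B and plasma cells, cholangiocytes, red cells and mesothelium, and genes of MHC class II, endoplasmic reticulum chaperones, respiration, G1/S and immediate early genes are given in the closing section.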

Additional observations from a re-analysis of the deposited data

Results flagged for a closer look

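Among the 10 ROIs of a class, pooled over both conditions, single ROIs stood apart from the rest in 8 of 98 groups of relative log2 levels tested for 49 genes, by a gap above Dixon's limit for 10 samples. That limit flags about 1 in 20 groups of independent values from 1 normal population. These groups pool both conditions and ROIs that share mice, so that rate need not hold here. The values given here are deposited ones. In score-low ROIs, Etl4 at 15.4 and Ptgs2 at 7.68 in knockdown ROI 23 lay below the rest. Tnc at 102 in knockdown ROI 25 lay above. In score-high ROIs, H2-D1 at 1029 in control ROI 11 and Hbegf at 10.6 in knockdown ROI 18 lay below the rest. Ddit3 at 258 in control ROI 6 and Krt19, a keratin, at 81.7 in control ROI 7 lay above, as did Gzmb at 97.1 in knockdown ROI 19.

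The log2 fold change of Clca3a1 differed by 1.87 between knockdown and control CAFs (limma interaction adjusted p = 0.0038), with score-high below score-low in control and the reverse in knockdown CAFs.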

How the results depend on the processing

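The counts of called genes depended on the settings. Against 7 higher and 6 lower genes, scaling to the 75th percentile gave 21 and 10 (67.7% of calls higher, beside 53.8%), values without centring 20 and 10 (66.7%), array weights 23 and 29, DESeq2 24 and 60, the score as a continuous covariate 40 and 16, and the score without Vegfa 13 and 24. An unmoderated linear model gave 2 and 0, none of them among the 13, 6 ROIs at each end gave 4 higher genes, no covariate 1 and 3, and the epithelial level 1 and 1. Counts were 0 and 0 with the score without Slc2a1 (1289 targets at an unadjusted p under 0.05 by limma), with ROI 26 kept (1416) and with the endothelial level as a covariate (946), in which the log2 fold change of Kdr reversed to 0.077. Without single ROIs, higher genes ranged from 0 to 14 and lower from 0 to 23. Within control, 22 higher and 5 lower became 44 and 35 with array weights, 39 and 17 by DESeq2, 9 lower by edgeR and 8 lower among targets above background, and ranged from 6 to 22 and 3 to 28 without single ROIs. Within knockdown, DESeq2 called 2 and 2, and without ROI 24 limma called 2 lower. Between conditions array weights added 1 lower target, and without single ROIs 1 to 2 higher and 0 to 1 lower were called. The difference in log2 reads ranged from 0.66 to 0.88 without single ROIs. Signs of all 13 genes held in each of these settings. The cause of each change was not tested. The endothelial and macrophage covariates were chosen after seeing the data. No paired analysis was possible because the ROI numbers differ between the groups and the labels tie no ROI to a mouse. ROIs of 406002 to 2776820 reads and 5 per class and condition limit the precision, and low targets most.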

Other observations

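Other gene groups gave small values between the score-high and score-low ROIs, with no member called except Ier3 among the immediate early genes. The median log2 fold change was -0.08 over 38 subunits of the respiratory chain, with 28 below 0. It was -0.11 over 28 genes of DNA replication and the G1/S transition, with 22 below 0. Above 0 lay 56.8% of all targets and 46.2% of the targets above background, among which are all 28. The median was 0.05 over 19 chaperones of the endoplasmic reticulum, 0.06 over 10 genes of MHC class II and 0.14 over 18 immediate early genes. Markers of sinusoidal endothelium had a median of 0.09 over 7 genes, beside the 15 endothelial markers at -0.43; a difference between these lists was not tested. Neutrophil markers had 0.04 over 9 genes, B and plasma cell markers 0.10 over 8, cholangiocyte markers 0.06 over 8, mesothelial markers 0.08 over 4 and markers of red blood cells 0.15 over 4.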
